A study of Mus musculus with 4 samples.

Results

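The mRNAs of 78 mitochondrial ribosomal protein genes were followed in mouse pachytene spermatocytes treated ex vivo with BMH21. The genes were all rows of the count table whose symbol starts with Mrpl or Mrps followed by a digit, 78 of 15733 protein-coding genes listed. All 78 passed the filter on low counts that left 13793 genes tested. BMH21, a DNA intercalator, blocks RNA polymerase I, which transcribes the nuclear genes for ribosomal RNA. Suspensions of single cells from mouse testis were kept for 12 h with 2.5 µM BMH21 or, as the mock condition, with DMSO alone, after which flow cytometry on Hoechst-stained DNA yielded the pachytene fraction. Each condition had 2 libraries. For strain, age, genotype and the number of animals behind a suspension, the sources used here give nothing.

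Mitochondrial ribosomes translate the few mRNAs encoded by mitochondrial DNA, all of which specify subunits of the oxidative phosphorylation complexes. Their ribosomal RNAs are transcribed inside the organelle by a dedicated polymerase, not by RNA polymerase I, while every ribosomal protein is encoded in the nucleus, made in the cytosol and imported. Some of these proteins have bacterial counterparts and others exist only in mitochondria, where they replace shortened ribosomal RNA or extend the particle. In the testis, spermatocytes use lactate and pyruvate supplied by Sertoli cells, which makes mitochondrial respiration a main source of their energy.

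Total counts per library ranged from 30964370 to 41548269. Pachytene markers were high in all 4 libraries, with summed levels of 4993 to 5104 CPM (counts scaled to TMM-adjusted library size) in mock and 4783 to 4915 CPM in BMH21 over 11 of 11 genes, of which 3 were called higher and 6 lower. Spermatid markers summed to 338.8 to 342.4 CPM in mock and 355 to 356 CPM in BMH21 (10 of 10 genes). The 9 spermatogonial markers present in the table, of 10, summed to 57.5 to 58.1 and 51.9 to 52.1 CPM, with 2 called lower. The 4 Leydig markers present, of 7, summed to 9.13 to 9.60 CPM in mock and 6.55 to 7.29 CPM in BMH21, with 1 called lower. Nearly all of this sum was Star (9.01 and 8.93 CPM in mock, 6.07 and 6.61 CPM in BMH21). Insl3 went the other way at a low level (0.119 and 0.352 CPM in mock, 0.362 and 0.567 CPM in BMH21). Sertoli markers (2 of 9) summed to 1.73 to 2.48 and 0.92 to 2.05 CPM, and peritubular, endothelial and immune markers (9 of 9) to 9.98 to 10.3 and 9.42 to 10.1 CPM, and Cyp17a1, Lhcgr, Clu, Dmrt1, Cdh5 and Acta2 were each at 0 in 1 library. The shifts between groups in the germ cell lists and in the Leydig gene Star stand beside every result below, and their part in those results was not tested. In bulk samples, fewer cells of a type and less RNA per cell cannot be told apart.

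Most mitochondrial ribosomal protein mRNAs kept within a narrow band between the groups. By the edgeR quasi-likelihood test, with p adjusted by Benjamini-Hochberg over all genes tested and a threshold of 0.05, 7 of the 78 rose, 9 fell and 62 were not called. That is 20.5% called, against 29.1% of all genes tested, with 16.5% of all genes called higher and 12.5% called lower. Before adjustment, 8 members on the higher and 12 on the lower side had p under 0.05, against 37.5% of all genes. Of the 13427 autosomal genes tested, 2021 were called higher and 1725 lower (27.9% called), and all members are autosomal. No member changed by 2-fold or more, whereas 712 of the 13793 genes tested, on any chromosome, did so with a call. The median log2 fold change over the 78 was -0.05 (quartiles -0.14 and 0.04), beside 0.00 over all genes tested (quartiles -0.17 and 0.18), with 52 of the 78 values negative and 33 smaller than 0.1 in size. The 2 groups of libraries did not overlap for 13 members on the higher and 26 on the lower side, where 30.9% and 29.9% of all genes tested were apart in that direction. Under upper quartile scaling 5 members rose and 13 fell, against 13.1% and 18.0% of all genes, since that scaling lowers all fold changes by a median of 0.05 on the log2 scale. DESeq2 called 4 higher and 4 lower (13.1% and 8.63% of all genes), and 2 to 5 rose and 6 to 7 fell with 1 library left out. The count of higher calls was 2 without mock replicate 2 or BMH21 replicate 2 and 4 without BMH21 replicate 1. The fall of Mrps2, Mrpl2 and Mrpl43 was called in all 10 alternative analyses, and no rise was.

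**Figure D1:**
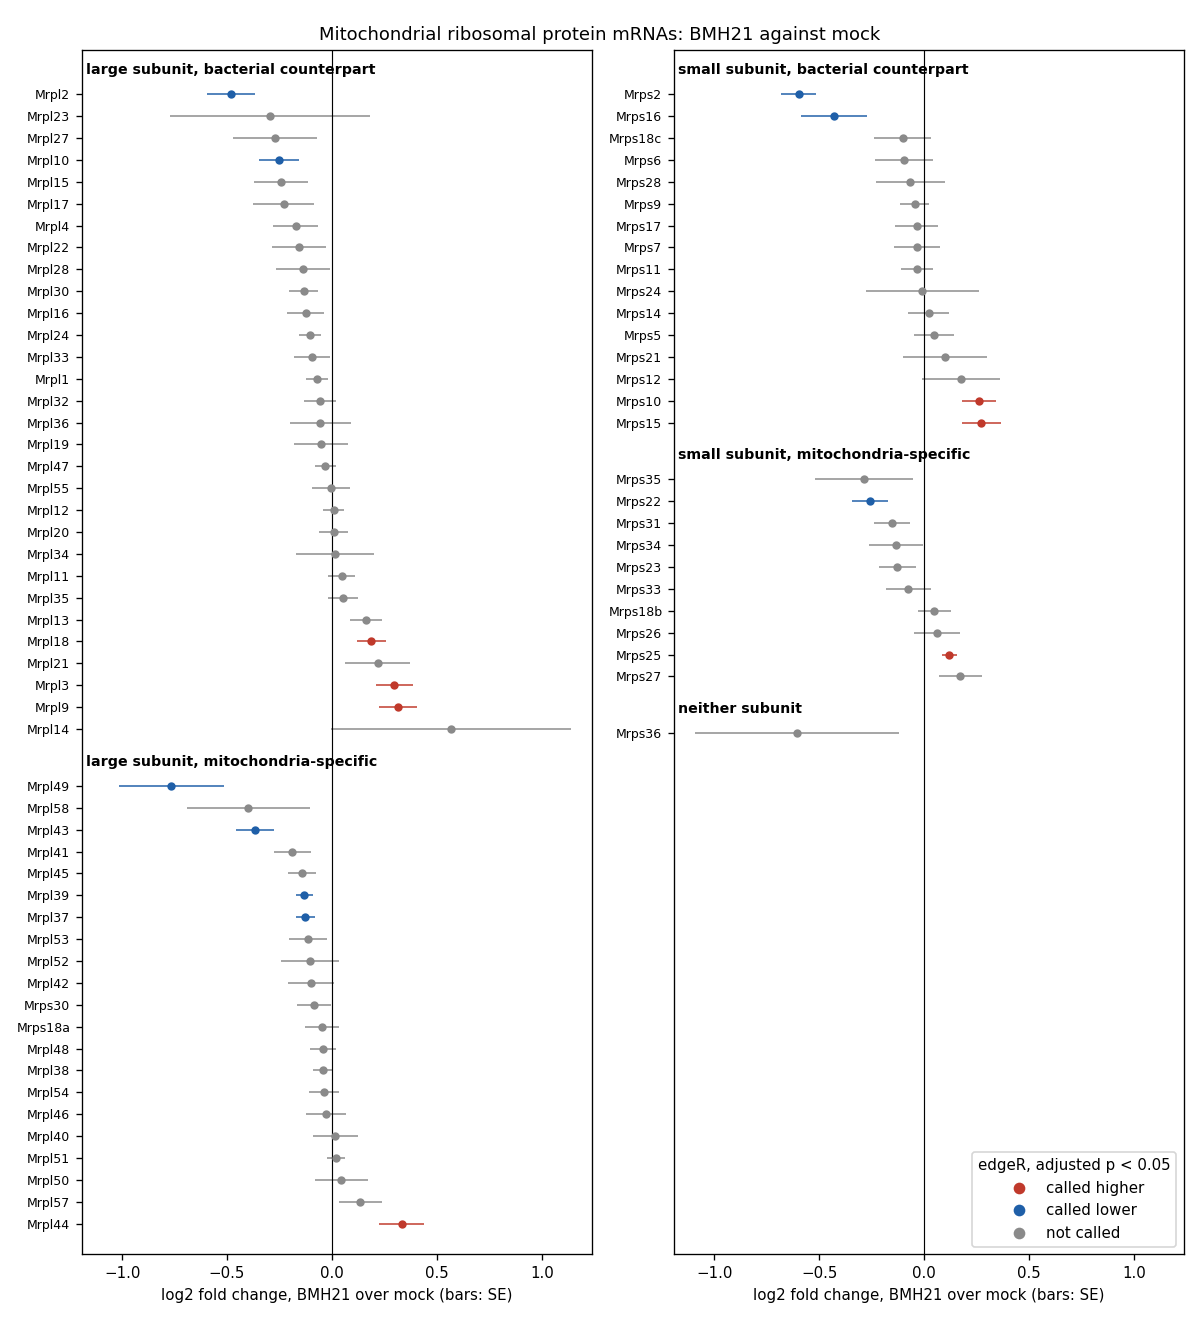
Log2 fold change (x axis, BMH21 over mock) of each of the 78 genes, as points with bars of 1 SE, grouped by ribosomal subunit and by whether the protein has a bacterial counterpart. Called genes are coloured, 7 higher and 9 lower, and all points lie between -0.77 (Mrpl49) and 0.57 (Mrpl14, not called).

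The clearest fall was that of Mrps2, which encodes the small-subunit protein that is the counterpart of bacterial S2 (ENSMUSG00000035772.12, chromosome 2, 28468066 to 28471178, plus strand, on GRCm38). It was at 35.9 and 35.6 CPM in the mock libraries and 22.7 and 24.6 CPM in the BMH21 libraries. The mock libraries lay together and both BMH21 libraries lay well below them, a change of -33.9% (log2 fold change -0.60 ± 0.08 (SE), edgeR adjusted p = 1.78e-08). With 1 library left out the value stayed between -0.66 and -0.54. Mrpl2, whose protein sits near the peptidyl transferase centre of the large subunit (chromosome 17, 46646229 to 46650139, plus strand), was at 16.5 and 17.2 CPM in mock and 12.95 and 11.2 CPM in BMH21. Its BMH21 libraries were again both below both mock libraries (log2 fold change -0.48 ± 0.11 (SE), edgeR adjusted p = 5.82e-04), with -0.59 to -0.38 when 1 library was left out. Among the rises with the smallest p was Mrpl9, the counterpart of bacterial L9 (chromosome 3, 94443318 to 94451130, plus strand), at 22.1 and 21.1 CPM in mock and 24.9 and 28.8 CPM in BMH21. The groups did not overlap, but BMH21 replicate 2 stood well above replicate 1 (log2 fold change 0.31 ± 0.09 (SE), edgeR adjusted p = 0.00553). The call was lost without mock replicate 2 (0.28) or without BMH21 replicate 2 (0.20). Mrpl3, whose protein also lies close to the peptidyl transferase centre (chromosome 9, 105053239 to 105079888, plus strand), was at 21.8 and 23.0 CPM in mock and 27.0 and 28.1 CPM in BMH21. Both BMH21 libraries exceeded both mock libraries (log2 fold change 0.30 ± 0.09 (SE), edgeR adjusted p = 0.00686). This call was lost without mock replicate 1 (0.26) or without BMH21 replicate 2 (0.26).

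The stretch before the RefSeq start of these 4 genes is shown because nuclear genes for mitochondrial proteins are known for binding sites of NRF1 and of ETS factors such as GABPA in their promoters. The sequences are RefSeq's, on build GRCm38.p6, each 200 bases that end at the base before a RefSeq start, 5′ to 3′ on the strand of the gene. They lie at chr2:28467866-28468065 (plus, Mrps2), chr17:46646021-46646220 (plus, Mrpl2, the first of 3 listed starts), chr3:94443136-94443335 (plus, Mrpl9) and chr9:105053068-105053267 (plus, Mrpl3). Capitals mark matches on either strand to any of 8 motifs: NRF1 (10 letters, as capitalised in Mrpl9, with any base at the fifth), ETS (CCGGAAG), YY1 (AAGATGGCG), the E-box (CACGTG), the CCAAT box (CCAAT), the GC box (GGGCGG), the TATA box (TATAAA) and the cyclic AMP response element (TGACGTCA).
Mrps2: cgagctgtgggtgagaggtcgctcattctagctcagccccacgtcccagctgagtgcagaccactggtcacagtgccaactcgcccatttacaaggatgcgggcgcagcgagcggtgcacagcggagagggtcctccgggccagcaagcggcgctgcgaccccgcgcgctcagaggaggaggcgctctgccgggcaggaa
Mrpl2: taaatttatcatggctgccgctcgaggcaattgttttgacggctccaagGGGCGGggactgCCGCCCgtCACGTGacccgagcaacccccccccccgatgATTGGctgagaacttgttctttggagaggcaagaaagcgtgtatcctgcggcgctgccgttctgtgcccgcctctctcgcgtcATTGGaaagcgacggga
Mrpl9: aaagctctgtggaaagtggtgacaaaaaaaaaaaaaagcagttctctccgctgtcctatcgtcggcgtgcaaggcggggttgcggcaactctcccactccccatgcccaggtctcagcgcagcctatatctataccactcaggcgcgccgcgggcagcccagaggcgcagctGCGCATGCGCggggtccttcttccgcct
Mrpl3: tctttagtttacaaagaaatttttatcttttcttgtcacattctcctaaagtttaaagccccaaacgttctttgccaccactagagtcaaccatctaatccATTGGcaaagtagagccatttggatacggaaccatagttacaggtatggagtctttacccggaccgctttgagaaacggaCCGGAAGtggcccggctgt
None of the 8 motifs matched in the stretch shown for Mrps2. Mrpl2 held 2 GC boxes, an E-box and 2 CCAAT boxes (the latter read as ATTGG). Mrpl9 held the NRF1 letters 28 to 19 bases before its RefSeq start, and Mrpl3 the ETS letters 19 to 13 bases before its RefSeq start with a CCAAT box farther out. The RefSeq start of Mrpl9 lies 18 bp and that of Mrpl3 29 bp downstream of the GENCODE start given above. By GENCODE, then, the end of either stretch is inside the gene, with the ETS letters of Mrpl3 but not the NRF1 letters of Mrpl9. A match is a run of letters and does not show that a factor binds there.

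Over the 69 members with a RefSeq promoter entry (300 bases, from 250 before to 50 after a start, any listed start), the ETS letters were present in 26 (37.7%), against 19.0% of the 10574 tested genes with an entry and 9.93% of all 27025 genes with one. The NRF1 letters were present in 13 members (18.8%, against 10.9% and 5.19%), and the YY1 letters in 8 (11.6%, against 3.37% and 1.64%). The TATA box (7.25% of members, 9.28% of tested genes), the E-box (7.25% and 10.9%), the cyclic AMP response element (2.90% and 3.41%), the CCAAT box (39.1% and 42.7%) and the GC box (49.3% and 63.8%) were no more frequent in members than in tested genes. Several of the motifs are rich in G and C, and neither base composition nor overlap between matches was taken into account. Within these windows the ETS letters were present for 2 of 7 members that rose, 3 of 9 that fell and 21 of 53 not called. The NRF1 letters were present for 2 of 7, 1 of 9 and 10 of 53.

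Of the members, 51 belong to the large subunit, since the proteins of Mrps18a and Mrps30 are located there in spite of their names. Of these, 4 rose, 6 fell and 41 were not called (19.6% called), with a median log2 fold change of -0.06. Summed over these 51 members, the level was 1774 and 1796 CPM in mock and 1737 and 1720 CPM in BMH21. Both BMH21 sums were below both mock sums, a mean difference of -3.19%, which in an exact 2-sided permutation test gave p = 0.333, the smallest value that 2 against 2 libraries allow. The small subunit, with 26 members, had 3 higher, 3 lower and 20 not called (23.1% called) and a median of -0.03. Its sums of 651 and 652 CPM in mock and 649 and 656 CPM in BMH21 overlapped (exact permutation p = 1). Per kilobase of exon, the summed level of the 51 large-subunit members was 3.23 and 3.24 times that of the 26 small-subunit members in mock. In BMH21 it was 3.13 and 3.14 times. The 5 mitochondrial ribosomal proteins with other names, Dap3 (mock mean 234 CPM) among them, are in neither sum. The ratio is thus not that of whole subunits. Without mock replicate 1 or BMH21 replicate 2, 5 large-subunit members were called instead of 10. Of the small-subunit members, 1 was called without mock replicate 2 and 2 without BMH21 replicate 1, instead of 6.

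Within the large subunit, proteins with a bacterial counterpart (30 genes) had 3 higher and 2 lower calls (16.7% called), and the mitochondria-specific ones (21 genes) 1 higher and 4 lower (23.8% called). The medians were -0.06 and -0.09 on the log2 scale. Of all genes tested 29.1% were called (16.5% higher and 12.5% lower), and whether the 2 classes differ was not tested. At the stalk that binds translation factors lie the proteins of Mrpl10, Mrpl11, Mrpl12, Mrpl53 and Mrpl54. Of these only Mrpl10, the stalk base, was called. It was at 24.9 and 22.4 CPM in mock and 20.7 and 19.1 CPM in BMH21 (chromosome 11, 97041560 to 97049213, plus strand). The BMH21 libraries were both lower (log2 fold change -0.25 ± 0.10 (SE), edgeR adjusted p = 0.0365). The call was lost in DESeq2 (-0.25), without mock replicate 1 (-0.17) or without BMH21 replicate 2 (-0.20). Mrpl12, the stalk protein proper, stood at 76.1 and 80.4 CPM in mock and 79.4 and 77.8 CPM in BMH21, with overlapping groups (log2 fold change 0.01). Of the 6 genes of the central protuberance (Mrpl18, Mrpl27, Mrpl38, Mrpl40, Mrpl46, Mrpl48), 1 was called. This was Mrpl18 (chromosome 17, 12911349 to 12916345, minus strand), at 42.3 and 46.1 CPM in mock and 50.7 and 49.9 CPM in BMH21. Its groups were apart by a small gap (log2 fold change 0.19 ± 0.07 (SE), edgeR adjusted p = 0.0261). The call was lost under upper quartile scaling (0.14), in DESeq2 (0.19), without mock replicate 1 (0.13), without BMH21 replicate 1 (0.17) or without BMH21 replicate 2 (0.20). None of the 6 genes at the exit of the nascent chain (Mrpl17, Mrpl22, Mrpl23, Mrpl24, Mrpl45, Mrpl47) was called in edgeR, DESeq2 also gave 0, and 2 of them (Mrpl24 and Mrpl45) had an unadjusted p under 0.05. All 6 of these values were negative, from -0.30 (Mrpl23, SE 0.48, at 0.968 CPM in mock) to -0.03, with a median of -0.15. Of the 51 large-subunit members, 35 had a negative value. Mrpl24 and Mrpl45 were called lower under upper quartile scaling (-0.15 and -0.19). Leaving out 1 library called Mrpl24 (-0.20, without BMH21 replicate 2), Mrpl45 (-0.24, without BMH21 replicate 1) or Mrpl17 (-0.44, without mock replicate 2).

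The mitochondria-specific large-subunit genes held the member with the largest called change. Mrpl49 (chromosome 19, 6053622 to 6057785, minus strand) was at 3.77 and 3.39 CPM in mock and 2.08 and 2.13 CPM in BMH21. Both BMH21 libraries were below both mock libraries, a change of -41.2% (log2 fold change -0.77 ± 0.25 (SE), edgeR adjusted p = 0.0143), on 69 to 158 counts per library. The call was lost in DESeq2 (-0.77), without mock replicate 1 (-0.68) or without BMH21 replicate 1 (-0.75). Mrpl43 (chromosome 19, 45004829 to 45006442, minus strand) was at 25.9 and 27.9 CPM in mock and 21.1 and 20.6 CPM in BMH21. Its groups were clearly apart (log2 fold change -0.37 ± 0.09 (SE), edgeR adjusted p = 0.00106). Leaving out 1 library gave -0.42 to -0.31. Mrpl39 (chromosome 16, 84717576 to 84735742, minus strand) and Mrpl37 (chromosome 4, 107055874 to 107066868, minus strand) are abundant, and their called changes were small. Mrpl39 was at 135 and 141 CPM in mock and 124 and 127 CPM in BMH21 (log2 fold change -0.13 ± 0.04 (SE), edgeR adjusted p = 0.00957). Mrpl37 was at 124 and 121 CPM in mock and 119 and 106 CPM in BMH21 (log2 fold change -0.13 ± 0.05 (SE), edgeR adjusted p = 0.0276). In both genes the lowest mock library exceeded the highest BMH21 library, for Mrpl37 by little. Mrpl39 lost its call without mock replicate 2 (-0.10), and Mrpl37 in DESeq2 (-0.13), without mock replicate 1 (-0.10), without mock replicate 2 (-0.14) or without BMH21 replicate 2 (-0.04). The 1 riser of this class was Mrpl44, whose protein is related to RNase III enzymes (chromosome 1, 79776018 to 79781445, plus strand). It was at 14.9 and 14.0 CPM in mock and 17.6 and 18.9 CPM in BMH21, with both BMH21 libraries higher (log2 fold change 0.33 ± 0.11 (SE), edgeR adjusted p = 0.0128). It lost its call in DESeq2 (0.33), without mock replicate 2 (0.29) or without BMH21 replicate 2 (0.28).

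In the small subunit, Mrps10 and Mrps15, counterparts of bacterial S10 and S15, rose. Mrps10 (chromosome 17, 47368887 to 47381417, plus strand) was at 26.8 and 25.9 CPM in mock and 32.5 and 30.8 CPM in BMH21 (log2 fold change 0.26 ± 0.08 (SE), edgeR adjusted p = 0.0112). Mrps15 (chromosome 4, 126046925 to 126055532, plus strand) was at 24.7 and 21.7 CPM in mock and 31.2 and 25.2 CPM in BMH21 (log2 fold change 0.27 ± 0.09 (SE), edgeR adjusted p = 0.0200). The groups of Mrps10 were well apart, while BMH21 replicate 2 of Mrps15 lay only just above mock replicate 1. Mrps10 lost its call without mock replicate 2 (0.24) or without BMH21 replicate 1 (0.22), and Mrps15 in DESeq2 (0.27), without mock replicate 2 (0.19) or without BMH21 replicate 1 (0.11). Mrps16, the counterpart of bacterial S16 (chromosome 14, 20389304 to 20393634, minus strand), was at 7.60 and 10.05 CPM in mock and 6.70 and 6.34 CPM in BMH21 (log2 fold change -0.43 ± 0.16 (SE), edgeR adjusted p = 0.0298). Mock replicate 2 was the high library here, and the call was lost in DESeq2 (-0.43), without mock replicate 2 (-0.22), without BMH21 replicate 1 (-0.47) or without BMH21 replicate 2 (-0.39). Mrps22, a mitochondria-specific protein known from inherited mitochondrial disease (chromosome 9, 98588730 to 98601660, minus strand), was at 27.2 and 30.3 CPM in mock and 23.3 and 24.7 CPM in BMH21 (log2 fold change -0.26 ± 0.09 (SE), edgeR adjusted p = 0.0192). Mock replicate 2 was again the higher of its group, and the call was lost in DESeq2 (-0.26), without mock replicate 2 (-0.18) or without BMH21 replicate 1 (-0.22). Mrps25, mitochondria-specific as well (chromosome 6, 92169525 to 92184033, minus strand), had the highest CPM of all members, at 183 and 181 CPM in mock and 193 and 203 CPM in BMH21. The 2 BMH21 libraries were slightly above the mock libraries (log2 fold change 0.12 ± 0.04 (SE), edgeR adjusted p = 0.00599). The call was lost under upper quartile scaling (0.07), without mock replicate 2 (0.11) or without BMH21 replicate 2 (0.08).

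**Figure D2:**
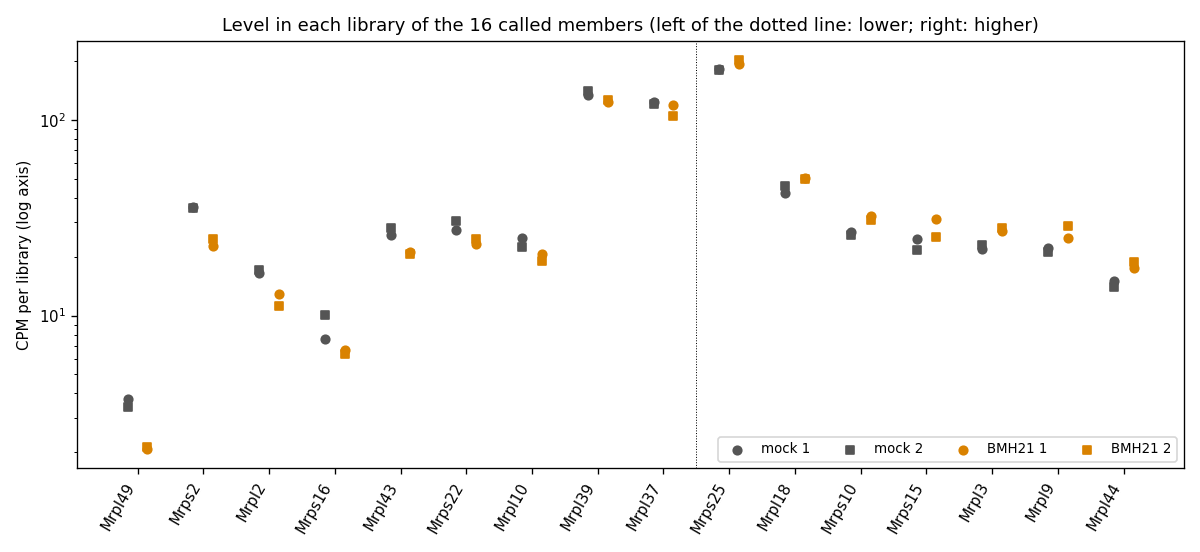
Level in CPM (y axis, log scale) of each called member in each library, with mock in grey and BMH21 in orange and replicate 1 as circles and replicate 2 as squares, ordered by log2 fold change. In all 16 genes the groups do not overlap, and the gaps are widest for Mrpl49 and Mrps2. The 16 were chosen by a test on these same libraries, and the groups do not overlap for 60.9% of all genes tested.

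Levels spread far more between members than between conditions. Per kilobase of exon (GENCODE M21 protein-coding models), mock levels ran over a 107-fold range, with a median of 13.3 CPM per kb beside 4.39 over all genes tested. This range and the order below depend on the models used. Over all annotated models the exon length is 7326 bp, not 478 bp, for Mrpl33 and 4460 bp, not 1498 bp, for Mrpl37. For Mrpl23 it is 4883 bp, not 966 bp. The highest were Mrpl37 (81.6 CPM per kb in mock, 74.9 in BMH21), Mrpl38 (70.5 and 68.6), Mrpl54 (69.7 and 67.8), Mrpl33 (60.9 and 57.0) and Mrpl39 (60.05 and 54.7), all large-subunit genes. The lowest were Mrpl14 (0.760 in mock and 1.14 in BMH21), Mrps35 (0.852 and 0.703) and Mrpl58 (0.980 and 0.736), the last a peptidyl-tRNA hydrolase that became part of the large subunit. In single libraries Mrpl14 was at 0.596 and 0.384 CPM in mock and 0.634 and 0.837 CPM in BMH21. It was not called (log2 fold change 0.57 ± 0.57 (SE), edgeR adjusted p = 0.522). Mrps35 was at 3.96 and 3.14 CPM in mock and 3.26 and 2.59 CPM in BMH21 and Mrpl58 at 1.95 and 3.14 CPM in mock and 1.93 and 1.89 CPM in BMH21, also not called (edgeR adjusted p = 0.404 and 0.343). Among the 5 highest, Mrpl38 (log2 fold change -0.04), Mrpl54 (-0.04) and Mrpl33 (-0.10) were not called, with edgeR adjusted p of 0.579, 0.748 and 0.452, and Mrpl38 was at 0.01 without BMH21 replicate 2. In CPM, 4 members had a mock mean of at least 100, 57 of 10 to 100 and 17 less. Called shares were 2 of 17 members under 10 CPM in mock, 9 of 36 from 10 to 30 CPM and 5 of 25 above, where 18.5%, 32.6% and 40.7% of all tested genes in those ranges were called. The median size of the members' log2 change was 0.23, 0.13 and 0.05 in these ranges, and their median SE 0.20, 0.10 and 0.07. Across the 78 genes, the log2 fold change had a Spearman correlation of 0.14 with the mock level and 0.08 with exon length. All these points share the same 4 libraries.

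The Mrps18 genes form a small family of paralogs that encode 3 different ribosome components. The protein of Mrps18c is the counterpart of bacterial S18, that of Mrps18b is a separate small-subunit protein, and that of Mrps18a belongs to the large subunit. Mrps18a was at 34.4 and 29.7 CPM in mock and 30.4 and 31.8 CPM in BMH21, and its groups overlapped (log2 fold change -0.05 ± 0.08 (SE), edgeR adjusted p = 0.743). Mrps18b was at 32.2 and 32.9 CPM in mock and 31.9 and 35.3 CPM in BMH21, overlapping as well (log2 fold change 0.05 ± 0.08 (SE), edgeR adjusted p = 0.720). Mrps18c was the least abundant, at 9.87 and 10.1 CPM in mock and 9.15 and 9.45 CPM in BMH21, with the BMH21 libraries slightly lower (log2 fold change -0.10 ± 0.14 (SE), edgeR adjusted p = 0.657). Per kilobase of the protein-coding models, Mrps18a and Mrps18b stood at 30.9 and 30.1 CPM in mock and Mrps18c at 10.6. Over all annotated models Mrps18a has 3690 bp of exon instead of 1037 bp, and Mrps18c 1076 bp instead of 940 bp, so this order depends on the models. The sign of the first pair depended on single libraries, with 0.07 for Mrps18a without mock replicate 1 and -0.03 for Mrps18b without BMH21 replicate 2. Mrps36, taken in by its name, is known as a component of the oxoglutarate dehydrogenase complex and was placed in neither subunit. It was at 1.24 and 0.832 CPM in mock and 0.725 and 0.648 CPM in BMH21 and was not called (log2 fold change -0.61 ± 0.49 (SE), edgeR adjusted p = 0.397).

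The members are spread over 17 autosomes, with 11 on chromosome 11 and 8 on chromosome 17, and none lies on X or Y. In the GENCODE M21 annotation 33 of the 78 share exon bases with another gene, 28 of them with one on the opposite strand. The library kit is a stranded one, but no source used here says whether the counting used strand, and reads in shared bases may belong to either gene. The overlap is largest among called members for Mrps25, 69.8% of whose exon bases lie in exons of Nr2c2 on the other strand. Nr2c2, which encodes a nuclear receptor, went from 292.7 ± 4.41 to 332 ± 7.61 CPM (mean ± SD of 2 libraries a group, 0.18 on the log2 scale, edgeR adjusted p = 8.95e-07), in the same direction as Mrps25. Mrpl43 shares 33.4% of its exon bases with Twnk, the gene of the mitochondrial DNA helicase, which also fell (27.2 to 22.9 CPM, log2 fold change -0.24, edgeR adjusted p = 0.0316). For Mrps34, 63.4% of the exon bases are shared with Mapk8ip3 on the other strand and 37.0% with Nme3 on the same strand. Mapk8ip3 rose (0.35, edgeR adjusted p = 8.80e-08), while Mrps34 was not called (-0.13). Mrpl53 shares 88.0% of its exon bases with the predicted gene Gm42688. Mrps2, Mrpl2, Mrpl37, Mrpl39, Mrps10, Mrps15, Mrps16 and Mrps22 share no exon base with another annotated gene. Pseudogenes named after members exist for Mrpl23 (1), Mrpl48 (1) and Mrps36 (3), and no source used here says how reads that map to several places were treated.

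Many members start back to back with another gene. A protein-coding gene on the other strand starts within 1000 bp for 33 of them, and in 1 case, Mrpl46 and Mrps11, both genes are members. The latter pair stood at 22.5 and 35.4 CPM in mock and 22.1 and 34.7 CPM in BMH21, with log2 fold changes of -0.03 each. Of the 30 tested partners that are not members, 2 were called higher and 7 lower, a share near the 29.1% of all genes called (16.5% higher and 12.5% lower). In 4 pairs both genes were called, in the same direction each time. These were Mrpl2 with the kinesin light chain gene Klc4 (-0.48 and -0.37, starts 207 bp apart), Mrpl37 with Cyb5rl (-0.13 and -0.69, 120 bp), Mrpl43 with Twnk (-0.37 and -0.24) and Mrpl18 with the chaperonin gene Tcp1 (0.19 and 0.07). The last 2 pairs share exon bases, and the first 2 do not. In 4 pairs only the member was called. The partners of the falling Mrpl49 and Mrpl10 had positive values, Fau at 59 bp (0.10, edgeR adjusted p = 0.149) and Lrrc46 at 153 bp (0.03, edgeR adjusted p = 0.455). Those of the rising Mrpl44 and Mrpl9 had positive values too, Wdfy1 at 125 bp (0.20, edgeR adjusted p = 0.0898) and Oaz3 at 597 bp (0.11, edgeR adjusted p = 0.241). Wdfy1 and Oaz3 share exon bases with their member, 7.66% of those of Mrpl44 and 5.81% of those of Mrpl9. In 5 pairs only the partner was called, including Mrpl32, at 34.1 and 36.1 CPM in mock and 31.8 and 35.6 CPM in BMH21 (-0.06), beside the proteasome gene Psma2, which rose (0.40, edgeR adjusted p = 2.88e-04). Mrps5, at 20.6 and 20.4 CPM in mock and 20.1 and 22.3 CPM in BMH21 (0.05), lies beside Zfp661, which fell (-0.56, edgeR adjusted p = 3.11e-11). Neither gene was called in 17 pairs. Across the 30 pairs the Pearson correlation of the log2 fold changes was 0.09 and the Spearman correlation 0.14. The partners named here outside the called members were picked after their values were seen.

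**Figure D3:**
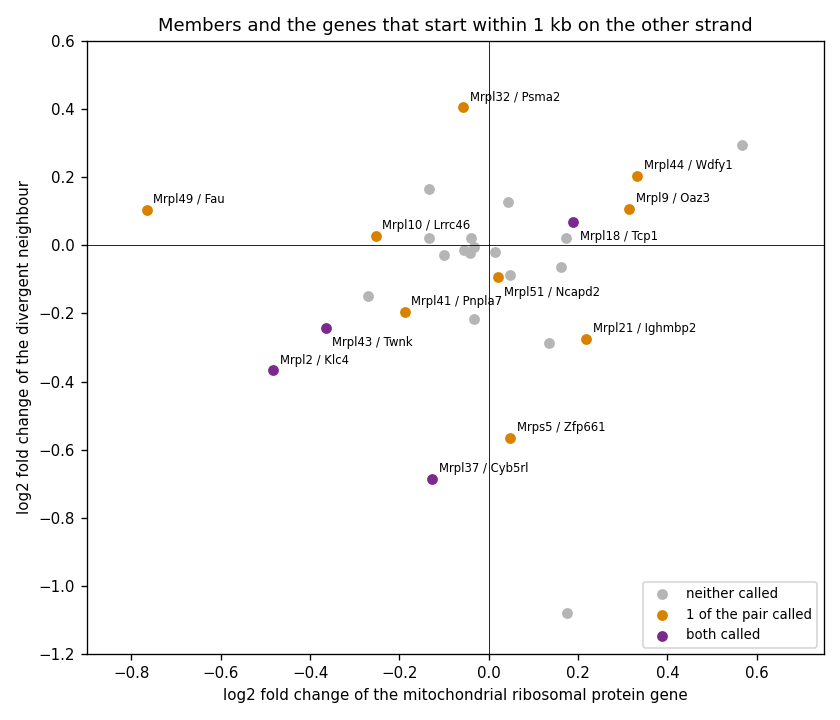
Log2 fold change of a member (x axis) against that of the gene starting within 1 kb on the other strand (y axis), 30 pairs, BMH21 over mock. The 4 pairs with both genes called lie at the lower left and upper right, while the 9 pairs with 1 called gene lie on all sides of both zero lines.

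Calls among other genes of mitochondrial gene expression went in both directions, and each list is set here against the 29.1% of all genes called (16.5% higher and 12.5% lower). The 5 mitochondrial ribosomal proteins with other names (Dap3, Ptcd3, Chchd1, Aurkaip1, Gadd45gip1) gave no call in edgeR or DESeq2, with 1 (Dap3) at an unadjusted p under 0.05 and a median log2 fold change of 0.08. Mean levels of Dap3 were 234 ± 1.79 (mock) and 247 ± 3.37 CPM (BMH21; SD over 2 libraries), with an edgeR adjusted p of 0.0562. Of this list 1 gene was called higher without BMH21 replicate 2. Of 28 assembly factors tested, 5 rose and 3 fell (28.6% called, near the share of all genes), with a median of -0.04. The GTPase gene Mtg2 rose from 4.90 ± 0.455 to 9.03 ± 0.0914 CPM (mean ± SD of 2 libraries a group, 0.88 on the log2 scale with an SE of 0.16, edgeR adjusted p = 9.27e-06). Mettl17, a methyltransferase-like factor of the small subunit, fell from 10.3 ± 0.902 to 5.67 ± 0.610 CPM (mean ± SD of 2 libraries a group, -0.87 on the log2 scale with an SE of 0.15, edgeR adjusted p = 3.73e-06), and the GTPase gene Gtpbp10 fell by 0.49 on the log2 scale. Afg3l2, a subunit of the protease that matures the protein of Mrpl32, rose by 0.16, a call lost without mock replicate 2 (0.14). With 1 library left out, the rises among assembly factors numbered 1 (without mock replicate 2), 2 (without BMH21 replicate 2), 3 (without mock replicate 1) or more.

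Mitochondrial translation factors were mostly not called, with 0 higher and 1 lower of 16 (6.25% called, against 29.1% of all genes, median -0.06). Before adjustment 1 higher and 2 lower had p under 0.05 in edgeR, and DESeq2 at its adjusted p gave 0 higher and 1 lower. Without BMH21 replicate 1 edgeR called 1 higher, and without BMH21 replicate 2 it called 2 lower. The called gene was Guf1, which encodes a ribosome-associated GTPase and fell from 5.36 ± 0.380 to 3.09 ± 0.0982 CPM (mean ± SD of 2 libraries a group, -0.80 on the log2 scale with an SE of 0.20, edgeR adjusted p = 0.00133). Of 22 mitochondrial aminoacyl-tRNA synthetase and amidotransferase genes, 4 rose and 5 fell (40.9% called), with a median of -0.13, and 2 rose without mock replicate 1. The leucyl-tRNA synthetase gene Lars2 fell from 66.7 ± 2.56 to 40.4 ± 2.00 CPM (mean ± SD of 2 libraries a group, -0.72 on the log2 scale with an SE of 0.06, edgeR adjusted p = 2.92e-15), Qrsl1 fell (10.3 to 6.06 CPM, log2 fold change -0.77 ± 0.15 (SE)) and Aars2 fell (61.2 to 50.8 CPM, log2 fold change -0.27 ± 0.06 (SE)), while Rars2 rose (24.6 to 32.5 CPM, log2 fold change 0.40 ± 0.08 (SE)). Of 22 genes of mitochondrial transcription and RNA processing, 1 rose and 5 fell (27.3% called, near the share of all genes), with a median of -0.15. Ptcd1 fell from 109 ± 0.351 to 88.7 ± 2.18 CPM (mean ± SD of 2 libraries a group, -0.30 on the log2 scale with an SE of 0.05, edgeR adjusted p = 2.26e-07), Fastkd3 by 0.60 and Tbrg4 by 0.18 on the log2 scale, and Lrpprc, which stabilises mitochondrial mRNAs, rose by 0.24. Tbrg4 lost its call without BMH21 replicate 2 (-0.17) and Lrpprc without mock replicate 2 (0.20), and without mock replicate 1 there were 2 rises and 3 falls.

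The mRNAs that mitochondrial ribosomes translate were represented by 13 mitochondrially encoded genes, of which 1 rose and 5 fell (46.2% called, against 29.1% of all genes, median -0.18). Of these, mt-Atp6, mt-Co2, mt-Co3, mt-Nd3, mt-Atp8 and mt-Nd4l were near the floor, with mock means from 1.57 CPM (mt-Atp6) down to 0.395 CPM (mt-Nd4l), and were not called. How reads that map to several places were treated is not known for these genes either. mt-Cytb fell from 288 ± 9.88 to 239.5 ± 6.98 CPM (mean ± SD of 2 libraries a group, -0.26 on the log2 scale with an SE of 0.03, edgeR adjusted p = 2.99e-10), mt-Nd5 by 0.23, mt-Nd6 by 0.30 and mt-Nd4 by 0.19 on the log2 scale. The riser, named after its value was seen, was mt-Co1 (2494 to 2617 CPM, log2 fold change 0.07), and under upper quartile scaling 0 of the 13 were called higher. Among 15 tested gene models of the mitochondrial stress response, 4 rose and 1 fell (33.3% called, close to the share of all genes, median 0.14). The chaperone gene Hspa9 rose from 443 ± 3.70 to 489 ± 2.11 CPM (mean ± SD of 2 libraries a group, 0.14 on the log2 scale with an SE of 0.03, edgeR adjusted p = 6.97e-06), Clpx by 0.17 and the transcription factor gene Atf4 by 0.26 on the log2 scale. Hspd1, at a low level (1.91 to 3.46 CPM), rose by 0.87 on the log2 scale. DESeq2 did not call Hspd1 (0.86), nor did edgeR without mock replicate 1 (0.72) or BMH21 replicate 2 (0.65), and the 1 fall was not called without either of these libraries. Of 10 regulators of nuclear genes for mitochondria, 2 rose and 3 fell (50% called). Nrf1, which encodes the factor of the NRF1 motif, rose (12.2 to 15.8 CPM, log2 fold change 0.37 ± 0.12 (SE)), as did Gabpb1, a subunit of the ETS factor GABP (20.8 to 25.9 CPM, log2 fold change 0.32 ± 0.09 (SE)). Gabpa (0.04, edgeR adjusted p = 0.617), Gabpb2 (0.08, edgeR adjusted p = 0.5085) and Yy1 (-0.08, edgeR adjusted p = 0.1475) were not called. Esrra fell by 0.45 on the log2 scale and Pprc1, at a low level (3.22 to 1.69 CPM), by 0.94. DESeq2 did not call Nrf1 (0.37), and edgeR did not without mock replicate 2 (0.35) or BMH21 replicate 1 (0.30). Calls were also lost for Gabpb1 without mock replicate 2 (0.28) or BMH21 replicate 1 (0.18), and for Pprc1 without mock replicate 1 (-0.75), when 1 regulator in all fell. For comparison, 35 of 80 cytosolic ribosomal protein genes rose and 0 fell, against 16.5% and 12.5% of all genes, with a median of 0.12. Before adjustment 45 higher and 1 lower had p under 0.05 in edgeR, and DESeq2 at its adjusted p gave 22 higher and 0 lower. Upper quartile scaling gave 16 higher and 3 lower, and leaving out 1 library 21 to 29 higher. Whether the mitochondrial and cytosolic sets differ was not tested.

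**Figure D4:**
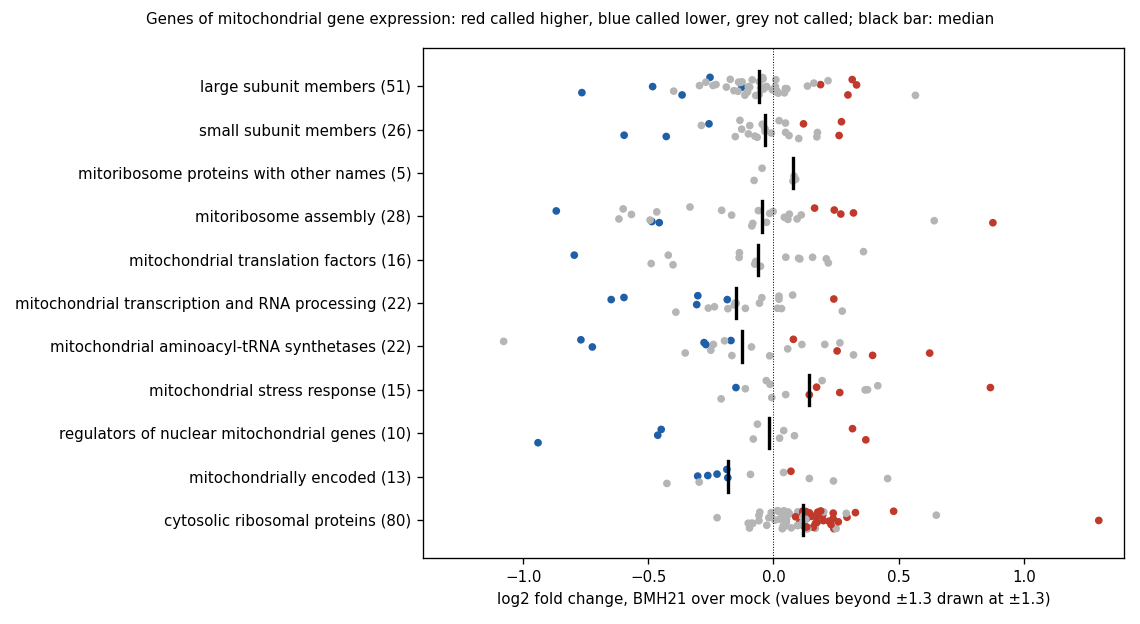
Log2 fold change (x axis, BMH21 over mock) of every tested gene of each list (rows, number tested in brackets), with a black bar at the list's median and a dotted line at the median of all genes tested. Bars for the large and small subunit lie at -0.06 and -0.03, that for mitochondrially encoded genes at -0.18 and that for cytosolic ribosomal proteins at 0.12; values beyond 1.3 in size are drawn at 1.3.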

How the data were processed

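The authors deposited 1 table with raw read counts per gene and library, size-factor-normalized values (signal), and log2 fold changes, a Wald score and p-values of their DESeq2 comparison, per the file headers. The processing notes of the submitters name fastp, STAR, SAMtools, featureCounts, DESeq2 and mm10, without versions or settings. Only the deposited counts were tested. The deposited log2 values differed from a DESeq2 1.42.0 run here by at most 2.83e-05, and the authors' deposited table marks 0 of the 78 genes as up or down, while 3 have an adjusted p under 0.05 there with a positive and 4 with a negative log2 fold change.

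Genes were filtered with filterByExpr (minimum count 10), scaled by TMM and tested with edgeR 4.0.16 in R 4.3.3 by quasi-likelihood, group alone, with Benjamini-Hochberg adjustment over 13793 genes. An SE is the log2 fold change divided by the square root of F. The script was tested on simulated data. Within a group the libraries were not copies of each other: chi-square over degrees of freedom was 3.21 for mock and 3.71 for BMH21, where counting error alone gives values near 1. Nothing in the labels says that the suspensions came from different animals, so p-values measure the spread between these libraries. Coordinates and exon lengths are from GENCODE M21 (GRCm38), matched by gene identifier for all 78, because the positions in the table are of another annotation.

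The members, lists and tests were chosen with earlier results of these data known. Values are given for all called members, the 5 highest and 3 lowest per exon length, the Mrps18 genes, and up to 4 called genes per context list by p. Any other gene named was picked with its values in view. The rule for cytosolic ribosomal proteins also matched Rps6k kinases, which were left out. Ddit3 is listed as 2 gene models, each counted.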

Additional observations from a re-analysis of the deposited data

How the results depend on the processing

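The 10 alternatives were RLE and upper quartile scaling, no filter and a stricter one (at least 1 CPM in all 4 libraries), DESeq2, the replicate number as a block, and leaving out each library. DESeq2 called 4 members higher, 4 lower, 5 in the large subunit and 3 in the small subunit, instead of 7, 9, 10 and 6. Leaving out 1 library gave 2 to 5 higher, 6 to 7 lower, 5 to 9 in the large subunit and 1 to 6 in the small subunit. The members' median log2 fold change, -0.0538, was -0.0992 under upper quartile scaling and -0.0784 to -0.0523 with 1 library left out. It stayed negative in all 10. No named gene that was called changed direction in any alternative. Of the 16 called members, DESeq2 lost 8, the replicate block 2, upper quartile scaling 2 and leaving out 1 library 5 to 9, while RLE scaling and both filters lost 0. Same-numbered libraries did not deviate together (correlation of deviations 0.01 over 11602 genes), and the labels give them no more than a number in common. With 2 libraries a group this cannot show whether they came from 1 suspension or animal. With the replicate block 7 members rose and 7 fell, 9 large-subunit and 5 small-subunit members were called, and the median was -0.0543. The calls of Mrpl10 (edgeR adjusted p = 0.0518) and Mrps16 (0.0584) were lost there. Over all genes, leaving out 1 library left 1805 to 2057 higher calls instead of 2282 and 1180 to 1492 lower calls instead of 1731, and DESeq2 1779 and 1174. The members' higher calls fell further, from 7 to as few as 2. Called changes under 10% in size were those of Mrps25, Mrpl37 and Mrpl39, all above 100 CPM. No change of that size was called in a rarer member.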
